A study of Mus musculus with 11 samples.

Results

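AP-1 is a family of dimeric transcription factors, and its 7 core genes, Fos, Fosb, Fosl1 and Fosl2 of the Fos family and Jun, Junb and Jund of the Jun family, were followed in alphaTC1-6 cells, a mouse line derived from glucagon-producing pancreatic alpha cells. The members were the rows of the deposited gene table whose Ensembl identifier carries one of these 7 symbols, and all 7 were found among 53947 rows. In the study, stranded mRNA libraries were made from 3 scramble control samples, 4 with Mettl3 knockdown (Mettl3 KD) and 4 with Mettl14 knockdown (Mettl14 KD). All cells were reverse transfected, that is, given the reagent as they were plated, at 70% confluency, and harvested at 72 h. Mettl3 and Mettl14 are the catalytic and the RNA-binding subunit of the enzyme that places N6-methyladenosine, m6A, on messenger RNA. No other treatment is labelled, every sample came from the same immortalised line, and the sources used here do not name the knockdown reagent. Whether the replicates are separate cultures is not in the labels, so the p-values cover the spread among these libraries, part of which may be technical.

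Fos proteins cannot pair with each other and bind DNA as dimers with a Jun protein, whereas Jun proteins can also pair among themselves; the dimers recognise the sequence TGANTCA and the related cyclic AMP response element. Most of these genes are immediate early genes: growth factor, calcium, cyclic AMP and stress signals raise their transcription within minutes through MAP kinases, and their short-lived transcripts are then degraded. Jund is the member that is made most steadily in resting cells, and Fosl1 is best known from growing and migrating cells. In islet cells, Fos and Junb are known to respond to signals that raise calcium and cyclic AMP.

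On GRCm38, in GENCODE M21, Fos lies at chr12:85473890-85477273 on the plus strand, Fosb at chr7:19302696-19310051 on the minus strand, Fosl1 at chr19:5447547-5455946 on the plus strand and Fosl2 at chr5:32135801-32157842 on the plus strand, each with 4 exons in its longest coding transcript. The Jun genes have 1 exon each: Jun at chr4:95049034-95052222 on the minus strand, Junb at chr8:84974484-84978718 on the minus strand and Jund at chr8:70698949-70700616 on the plus strand.

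The promoters of Fos, Jun and Junb are shown because Fos moved against Jun and Junb in Mettl14 KD, in the results below. In Mettl3 KD Fos was not called. The sequences are the 250 bases before the RefSeq start site in GRCm38.p6, read 5′ to 3′ on the gene's strand, with motif matches in capitals.
Fos, chr12:85473640-85473889, plus strand: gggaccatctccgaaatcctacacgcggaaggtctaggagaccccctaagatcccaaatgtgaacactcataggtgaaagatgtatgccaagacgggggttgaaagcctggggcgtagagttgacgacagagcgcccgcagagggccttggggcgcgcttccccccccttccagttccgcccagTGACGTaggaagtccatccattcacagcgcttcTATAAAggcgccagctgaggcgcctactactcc
Jun, chr4:95052223-95052472, minus strand: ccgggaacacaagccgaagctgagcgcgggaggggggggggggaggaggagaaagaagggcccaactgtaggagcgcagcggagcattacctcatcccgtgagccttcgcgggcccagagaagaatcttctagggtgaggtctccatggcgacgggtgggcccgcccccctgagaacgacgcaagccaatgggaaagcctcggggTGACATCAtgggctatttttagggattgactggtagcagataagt
Junb, chr8:84978749-84978998, minus strand: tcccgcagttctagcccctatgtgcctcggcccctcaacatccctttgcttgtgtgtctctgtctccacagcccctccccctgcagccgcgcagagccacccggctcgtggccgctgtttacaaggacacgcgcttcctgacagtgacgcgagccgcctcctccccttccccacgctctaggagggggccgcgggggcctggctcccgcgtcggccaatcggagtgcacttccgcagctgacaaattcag
Motifs were searched on both strands: the AP-1 site TGANTCA, the variant TGACATCA, the core TGACGT of the cyclic AMP response element, TATAAA of the TATA box, and the CArG box bound by serum response factor. The Fos window held TGACGT, beginning 66 bases before the start, and TATAAA, beginning 33 bases before it. The Jun window held TGACATCA, beginning 45 bases before the start. The Junb, Fosb, Fosl2 and Jund windows held none of the 5 motifs. Bases further upstream were not searched, so a CArG box or other motif lying there would be missed, for Fos as for the others. Over all 32851 promoter windows of this length, 6.47% held TGACGT, 12.4% held TATAAA, 2.93% held TGACATCA, 6.75% held TGANTCA and 1.47% held a CArG box. RefSeq windows were matched for 6 of the 7 members. For Fosl2 and Jund the RefSeq start lay 671 and 1210 bases from the start of the GENCODE gene, and for the other members matched at most 30 bases.

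METTL3 and METTL14 methylate the A of sequences such as GGACT, most often near the stop codon, and no m6A was measured here. In the longest coding transcripts of GENCODE M21 on GRCm38, GGACT occurred at 2.40 per kb in Jund, 2.20 per kb in Jun, 1.90 per kb in Fos, 1.66 per kb in Junb, 1.32 per kb in Fosb and 1.22 per kb in Fosl2, and not in Fosl1. It occurred at least once in 90.6% of tested genes with a transcript. The median over 13731 tested genes with a transcript was 1.03 per kb, with quartiles of 0.616 and 1.505 per kb. The copy nearest the stop codon is shown in capitals, with 10 bases on either side, for 5 members; in each it lay after the stop codon, in the 3′ UTR.
Fos: tgggcctcaaGGACTtgcaagcatc
Fosl2: ccacccggtgGGACTtagtggtgag
Jun: tacacaagatGGACTgggttgcgac
Junb: ctcacacactGGACTccggcccgcc
Jund: gcgcatgcgcGGACTagctgcggtg
Its A stood 158 bases from the first base of the stop codon in Fos, 139 in Fosl2, 130 in Jun, 126 in Junb and 28 in Jund; in Fosb the nearest copy lay 926 bases away, in the coding sequence. A copy within 300 bases of the stop codon was present in 50.65% of the 12181 tested genes with an annotated stop codon.

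Library totals ran from 19576632 to 22406527 estimated counts, and levels are given as CPM, counts per 1000000 library counts, after TMM scaling (edgeR's trimmed mean normalisation). The targeted transcripts checked the labels: Mettl3 fell to 5.34 ± 0.449 CPM in Mettl3 KD from 14.9 ± 1.02 in scramble, and Mettl14 to 14.7 ± 0.720 CPM in Mettl14 KD from 25.2 ± 1.70 (SD, n = 4 against n = 3). Alpha cell markers summed to between 34870 and 45490 CPM in each library, and 9 of 10 passed the filter on low counts, the other, Gc, having 0 counts. The 8 beta cell markers summed to between 50.3 and 73.7 CPM, with Pdx1 at 0. Scramble replicate 2 stood apart: 9 markers of lung epithelium and red blood cells summed to 110.9 CPM there against at most 3.76 in the other scramble libraries, 7 leukocyte markers to 25.3 against 2.74, and 8 fibroblast markers to 24.45 against 7.21. In the knockdown libraries these 3 lists stayed at or below 5.57, 2.72 and 12.04 CPM. Scramble replicate 2 also had the lowest alpha cell sum, 34870 CPM, and the highest beta cell sum, 73.7 CPM. The 6 endothelial markers summed to 8.75 CPM there, against at most 0.952 in the other scramble libraries and 2.865 in the knockdown libraries. Against the other scramble libraries, 626 tested genes with a transcript GC content of at least 60% had a median log2 difference of 0.15 in this library, against -0.00 for all genes tested; Jund has a GC content of 67.1%, Junb of 62.6%, and the median tested gene of 49.8%. The part of these values in the results was not tested, so each member is given with and without this library.

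By level per kilobase of transcript, Jund was the most abundant member and Fosl1 was barely present. In scramble libraries, Jund stood at 85.4 ± 21.7 CPM per kb, Fosl2 at 28.1 ± 1.04, Junb at 22.3 ± 2.39, Jun at 11.5 ± 0.982, Fos at 5.59 ± 0.402 and Fosb at 1.08 ± 0.130 (SD, n = 3). No neighbouring pair in this order overlapped among the scramble libraries, and the group means had the same order in both knockdowns. The order rests on the longest coding transcript: per kilobase of the median transcript length, Fos stood above Jun in scramble, at 14.5 ± 1.04 against 11.5 ± 0.982 CPM per kb. Fosl1 had 0, 1 or 2 estimated counts in scramble, 0 to 5 in Mettl3 KD and 1 to 4 in Mettl14 KD, and in the 3 libraries with 0 counts, 3 counts, the limit that a count of 0 allows, come to 0.134 CPM. It was the 1 member that did not pass the filter on low counts, so tests cover the other 6.

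**Figure D1:**
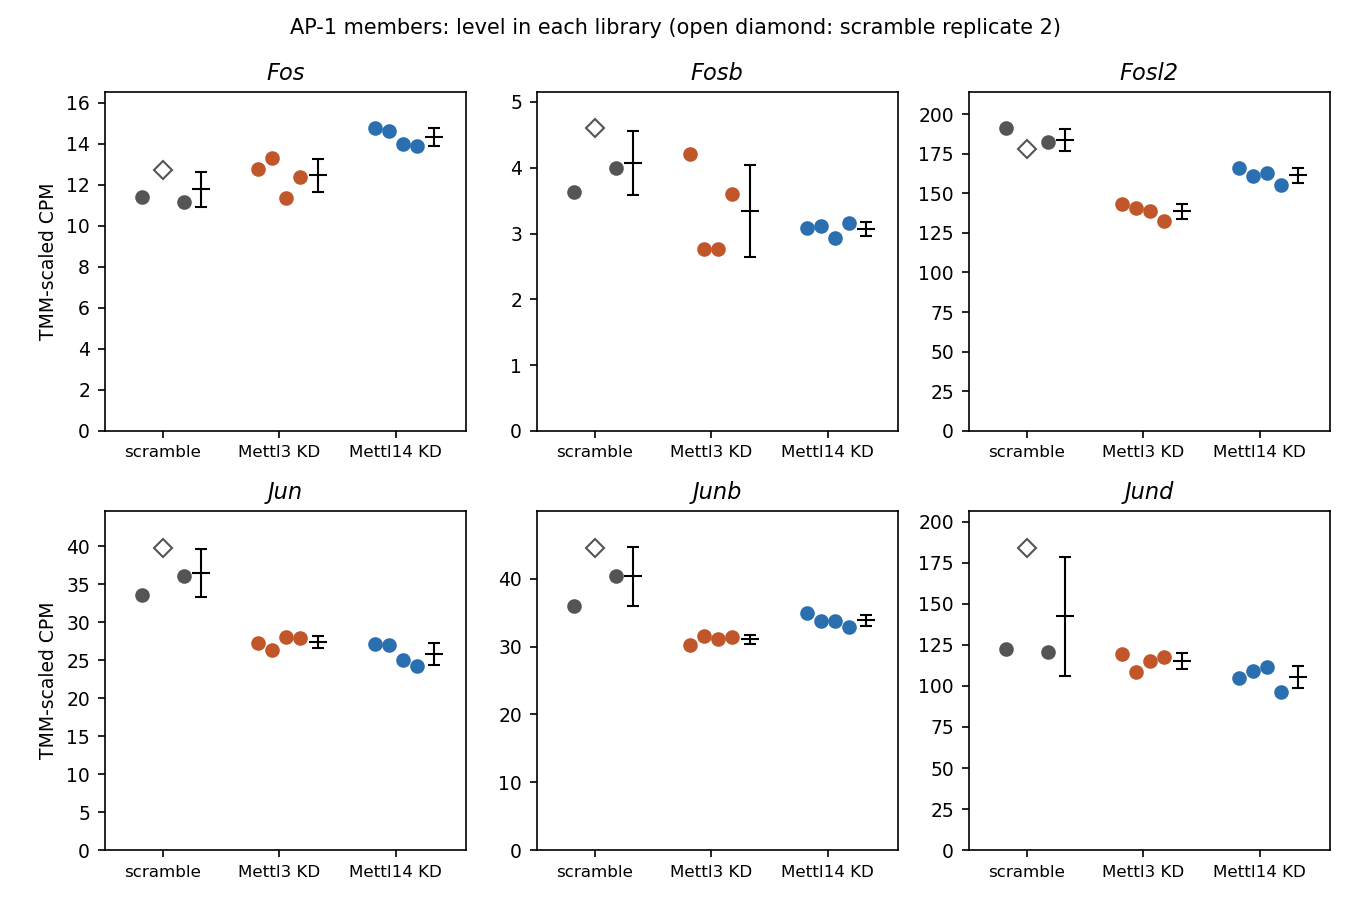
TMM-scaled CPM of the 6 tested AP-1 members (vertical axes, starting at 0) in each scramble, Mettl3 KD and Mettl14 KD library (points), with the mean and SD of each group (bars). Fosl2, Jun and Junb lie lower in all 8 knockdown libraries than in any scramble library, Fos lies highest in Mettl14 KD, and scramble replicate 2 (open diamond) holds the highest Jund value, 184 CPM.

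With Mettl3 knocked down, Jun, Junb and Fosl2 fell, and no member was called higher. With all libraries the decreases were of about the same size. Without scramble replicate 2 the log2 fold changes ran from -0.30 ± 0.05 for Junb to -0.43 ± 0.03 for Fosl2. Fosl2, also called Fra-2, is the most abundant Fos family transcript in these cells. It was at 191, 178 and 182 CPM in the scramble libraries and at 143, 140.5, 139 and 132 CPM in Mettl3 KD, so the groups did not overlap. Its log2 fold change was -0.40 ± 0.04 (SE), 1.32-fold lower, with an edgeR quasi-likelihood adjusted p = 4.54e-08. Jun, the founding member and the strongest activator of the Jun family, was at 33.6, 39.9 and 36.1 CPM in scramble and at 27.3, 26.4, 28.0 and 28.0 CPM in Mettl3 KD. All Mettl3 KD libraries lay below all scramble libraries, with a log2 fold change of -0.41 ± 0.06 (1.33-fold lower, edgeR adjusted p = 1.36e-05). Junb, a Jun protein that can oppose Jun at some promoters, was at 35.9, 44.6 and 40.5 CPM in scramble and at 30.2, 31.6, 31.2 and 31.4 CPM in Mettl3 KD. Here too the groups did not overlap, and the log2 fold change was -0.37 ± 0.06 (1.30-fold lower, edgeR adjusted p = 3.60e-05).

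The other members did not pass the test in Mettl3 KD. Fos was at 11.4, 12.8 and 11.2 CPM in scramble and at 12.8, 13.3, 11.4 and 12.4 CPM in Mettl3 KD, with overlapping groups (log2 fold change 0.08 ± 0.07, edgeR adjusted p = 0.404). Fosb, known for its role in lasting responses of neurons, was at 3.63, 4.60 and 3.99 CPM in scramble, and its 4 Mettl3 KD values were spread from 2.77 to 4.21 CPM (log2 fold change -0.28 ± 0.14, edgeR adjusted p = 0.147). Leaving out the highest of these, Mettl3 KD replicate 1, gave -0.41 and an edgeR adjusted p = 0.0365. Jund was at 123, 184 and 120 CPM in scramble and at 119, 108, 115 and 117 CPM in Mettl3 KD. The groups did not overlap, yet the distance between them rested on scramble replicate 2: the log2 fold change was -0.30 ± 0.14 with that library (edgeR adjusted p = 0.149) and -0.08 ± 0.05 without it (edgeR adjusted p = 0.234). In scramble replicate 2, Jund was 0.60 higher on the log2 scale than in the other scramble libraries, Fosb 0.27, Junb 0.23, Jun 0.19 and Fos 0.17 higher, and Fosl2 stood at -0.07. Without it Fos was at 0.14 ± 0.08 and Fosb at -0.19 ± 0.15, neither called.

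In all, 0 of 6 tested members were higher and 3 were lower in Mettl3 KD, where 31.3% of all genes tested were called, 15.5% higher and 15.8% lower. DESeq2 and limma-voom also called 0 higher and 3 lower, and by edgeR 0 were higher at an unadjusted p under 0.05. The median log2 fold change of the 6 was -0.34, against -0.00 over all genes tested. Groups did not overlap for 4 of the 6 members and for 35.5% of all genes. Without scramble replicate 2 the calls for Fosl2, Jun and Junb held, at -0.43 ± 0.03, -0.35 ± 0.06 and -0.30 ± 0.05, and the median was -0.24, where 30.3% of all genes tested were called.

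With Mettl14 knocked down, Jun, Junb and Fosl2 fell again, and Fos rose. Fos, the classical partner of Jun, was at 14.8, 14.6, 14 and 13.9 CPM in Mettl14 KD, above each scramble library. Its log2 fold change was 0.28 ± 0.07, 1.22-fold higher (edgeR adjusted p = 0.00613), and 0.34 ± 0.08 without scramble replicate 2. Jun was at 27.1, 27.0, 25.1 and 24.3 CPM, all below scramble, with a log2 fold change of -0.50 ± 0.06 (1.41-fold lower, edgeR adjusted p = 2.48e-06). Thus the classical pair moved in opposite directions in the same 4 libraries. Junb was at 34.95, 33.8, 33.8 and 32.95 CPM, which lay just under the lowest scramble value of 35.9 CPM. Its log2 fold change was -0.25 ± 0.06 (1.19-fold lower, edgeR adjusted p = 0.00299), and -0.17 ± 0.05 without scramble replicate 2 (edgeR adjusted p = 0.0118). Fosl2 was at 166, 161, 163 and 155 CPM, below scramble without overlap (log2 fold change -0.19 ± 0.04, 1.14-fold lower, edgeR adjusted p = 0.000797). Without scramble replicate 2 the log2 fold change of Jun was -0.43 ± 0.06 and that of Fosl2 -0.21 ± 0.03, both called.

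Fosb and Jund lay below scramble in all 4 Mettl14 KD libraries but did not pass the test. Fosb was at 3.08, 3.12, 2.93 and 3.16 CPM (log2 fold change -0.40 ± 0.15, edgeR adjusted p = 0.0557). It had 62 to 94 estimated counts per library, the fewest of the tested members. Fosb was called without scramble replicate 1, at -0.48, and without Mettl3 KD replicate 1, at -0.40, and stood at -0.31 ± 0.16 without scramble replicate 2, not called. Jund was at 105, 109, 112 and 96.5 CPM (log2 fold change -0.43 ± 0.14, edgeR adjusted p = 0.0699). It was called when any 1 scramble library was left out: at -0.53 without replicate 1, at -0.20 ± 0.05 without replicate 2 (edgeR adjusted p = 0.00403) and at -0.53 without replicate 3.

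In Mettl14 KD 1 of 6 tested members was thus higher and 3 were lower, where 20.9% of all genes tested were called, 10.1% higher and 10.8% lower. Without scramble replicate 1, 5 members were lower, and without scramble replicate 2, 4 were lower, where 19.5% of all genes were called. The median over the 6 was -0.33, against 0.00 over all genes tested, and -0.21 without scramble replicate 2. Groups did not overlap for all 6, and for 28.9% of all genes. Both knockdowns were set against the same 3 scramble libraries, so the shared decreases of Jun, Junb and Fosl2 are not independent of each other.

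**Figure D2:**
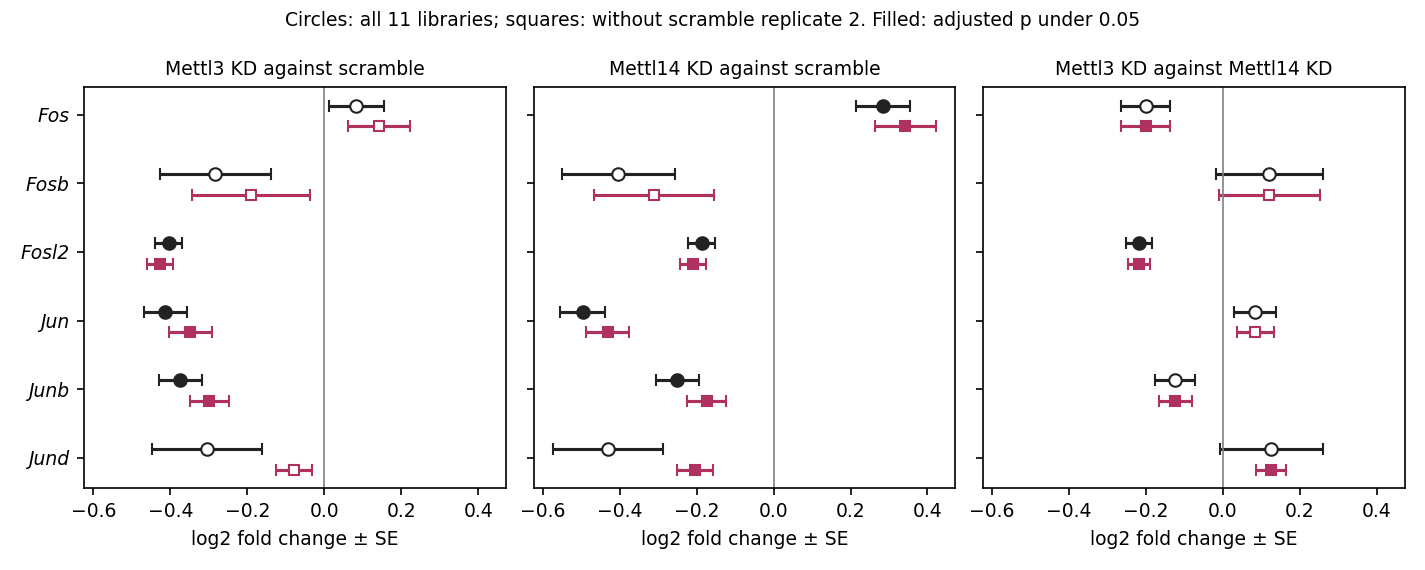
Log2 fold change with its SE (horizontal axis) of 6 AP-1 members in the 3 comparisons, from all 11 libraries (circles) and without scramble replicate 2 (squares), filled where the edgeR adjusted p passed 0.05. Fosl2, Jun and Junb are filled in both knockdowns with and without that library, and Jund moves toward 0 without it.

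Set directly against each other, the knockdowns differed in Fosl2. It was lower in Mettl3 KD, 132 to 143 CPM, than in Mettl14 KD, 155 to 166 CPM, with no overlap (log2 fold change -0.22 ± 0.03, edgeR adjusted p = 0.000290). It was the 1 member called of 6, lower, with 0 higher; of all genes 8.10% were called, 3.66% higher and 4.44% lower, and DESeq2 and limma-voom gave the same 1 and 0. At an unadjusted p under 0.05, edgeR counted 3 lower and 0 higher. Fos was lower in each Mettl3 KD library than in each Mettl14 KD library, at -0.20 ± 0.06, and did not pass (edgeR adjusted p = 0.0562), so its rise in Mettl14 KD alone was not shown to differ between the knockdowns. Junb likewise did not overlap and did not pass, at -0.12 ± 0.05 (edgeR adjusted p = 0.166), and Jun, Fosb and Jund overlapped, at 0.08 ± 0.05, 0.12 ± 0.14 and 0.13 ± 0.13. Non-overlap held for 3 of 6 members and for 17.6% of all genes. Scramble replicate 2 enters here through the shared estimate of spread. Without it 14.8% of all genes were called, and with them Fosl2, Fos and Junb as lower and Jund as higher, at -0.22, -0.20, -0.12 and 0.13; without Mettl3 KD replicate 2, Fos at -0.23 and Fosl2 were lower.

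The Jun family made up the larger part of the AP-1 transcript pool in each of the 11 libraries. Summed over the 7 members, the level was 154 ± 24.4 CPM per kb in scramble, 123 ± 2.79 in Mettl3 KD and 122 ± 5.10 in Mettl14 KD (SD), and 140 in scramble without replicate 2. Jun family transcripts made up 77.0% ± 3.52 of this sum in scramble (75.03% without replicate 2), 77.2% ± 0.897 in Mettl3 KD and 73.6% ± 0.716 in Mettl14 KD. The share ran from 74.5% to 81.1% in scramble libraries, from 76.0% to 78.1% in Mettl3 KD and from 72.8% to 74.3% in Mettl14 KD. Fos made up 3.66% of the sum in scramble (3.83% without replicate 2), 4.82% in Mettl3 KD and 5.56% in Mettl14 KD. In Mettl3 KD the level of Fos itself was not called. With median transcript length its shares were 7.25%, 9.51% and 10.6%. These shares describe transcripts and not dimers, and no test was made on them. In such bulk libraries, fewer cells with a transcript and less of it per cell cannot be told apart.

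**Figure D3:**
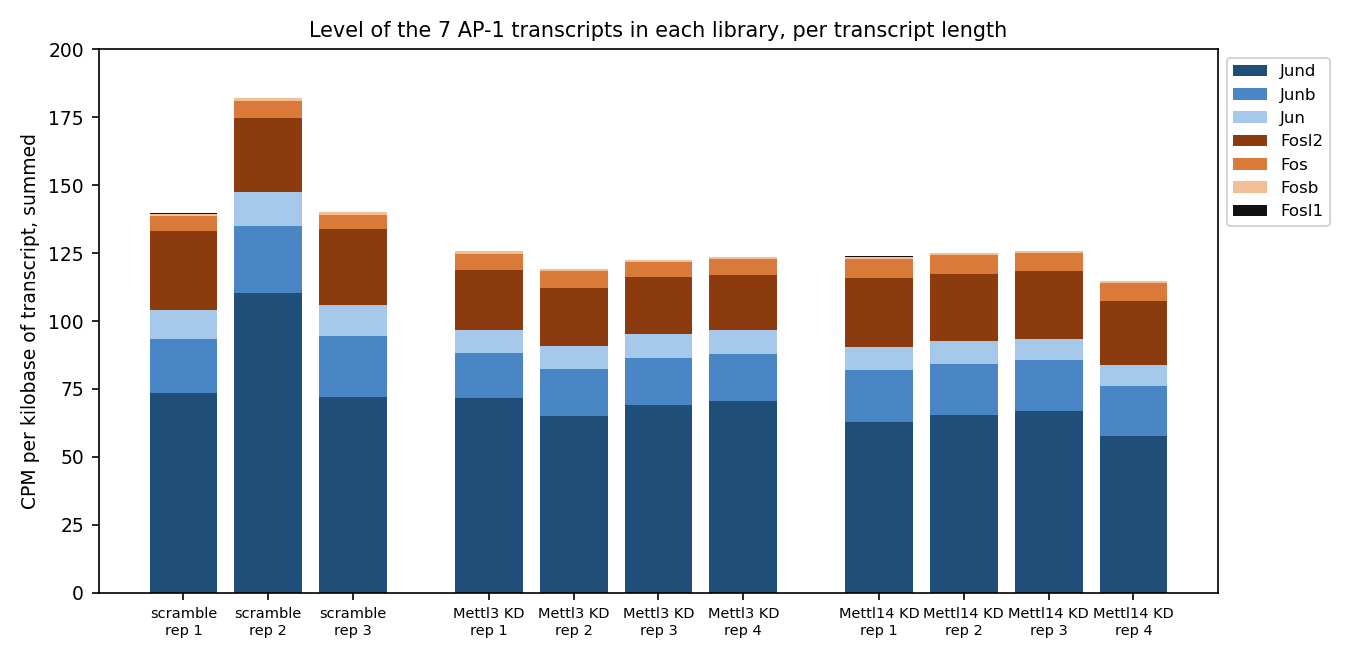
Summed CPM per kilobase of transcript (vertical axis, from 0) of the 7 AP-1 genes in each library, with the Jun family in blue and the Fos family in brown and orange. The sum reaches 182 in scramble replicate 2 and lies between 115 and 126 in the knockdown libraries, and Jund is the largest part in every bar.

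Lists of genes that work with AP-1 were counted in the same fit, in which 31.3% of all genes tested were called in Mettl3 KD and 20.9% in Mettl14 KD. The 2 called members with the smallest adjusted p in each list are named by rule, and other members of small counts are named after their values were seen. Among 9 tested bZIP partners, which pair with Jun or Fos proteins, 4 were lower in Mettl3 KD and 3 in Mettl14 KD. Without scramble replicate 2, 3 were lower in each. With 1 library left out these counts ran from 3 to 4 and from 2 to 3. In both knockdowns 0 were higher by edgeR, DESeq2 and limma-voom, and 0 by edgeR at an unadjusted p under 0.05. Atf3, a stress-induced partner of Jun, fell by 0.48 ± 0.09 on the log2 scale in Mettl3 KD and by 0.55 ± 0.09 in Mettl14 KD. Maff, a small Maf protein, fell by 0.83 ± 0.20 and 0.79 ± 0.20, the second not called without scramble replicate 1, at -0.59. Atf2, a partner of Jun at the Jun promoter, fell in Mettl3 KD, by 0.20 ± 0.04. The median of the list was -0.04 in Mettl3 KD and -0.07 in Mettl14 KD. Without scramble replicate 2, the medians of this list and the 5 lists of regulators that follow ran from -0.05 to 0.05.

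Genes of the MAP kinase cascades that activate AP-1 moved both ways. Of 23 tested, 6 were higher and 4 lower in Mettl3 KD, and 4 higher and 4 lower in Mettl14 KD, with medians of 0.01 and 0.03. All 4 were lower in both: Map3k1, a kinase at the head of the JNK cascade, at -0.48 ± 0.05 and -0.45 ± 0.05; Map2k1, the ERK activator MEK1, at -0.32 ± 0.05 and -0.40 ± 0.05; Mapk3, the kinase ERK1, at -0.40 ± 0.06 and -0.33 ± 0.06; and Rps6ka1, a kinase activated by ERK, at -0.41 ± 0.06 and -0.37 ± 0.06. Map2k3, an activator of p38, rose by 0.44 ± 0.05 and 0.22 ± 0.05.

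Among inhibitors that ERK, JNK and p38 signalling induces against itself, more were called lower than higher. Of 16 tested, 1 was higher and 5 lower in Mettl3 KD, and 2 higher and 4 lower in Mettl14 KD. The medians were -0.06 and -0.01. In Mettl14 KD 3 were lower and 2 higher without scramble replicate 2, and also by DESeq2 and by limma-voom. Over all fits with 1 library left out, 3 to 4 were lower and 1 to 2 higher in Mettl14 KD. Dusp1, a nuclear phosphatase and itself an immediate early gene, rose by 0.21 ± 0.04 and 0.34 ± 0.04. Dusp8, a phosphatase acting on JNK, fell by 0.40 ± 0.06 and 0.42 ± 0.06. Spred2 and Spred3, membrane proteins that restrain the Ras to ERK step, fell by 0.31 ± 0.04 and 0.58 ± 0.07 in Mettl3 KD. In Mettl14 KD Spred2 fell by 0.17 ± 0.04 and Spred3 did not pass, at -0.17 ± 0.07. Spry4, another inhibitor of this step, rose in Mettl14 KD by 0.31 ± 0.08, and without scramble replicate 3 only 1 inhibitor was higher there.

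Of 16 tested factors that act at the Fos and Jun promoters, 1 was higher and 3 lower in Mettl3 KD, and 1 higher and 2 lower in Mettl14 KD, with medians of -0.01 and 0.01. Crem, which binds cyclic AMP response elements and whose short forms repress them, rose by 0.21 ± 0.05 and 0.30 ± 0.05. Mef2d fell by 0.20 ± 0.03 and 0.17 ± 0.03, and Elk3, a partner of serum response factor, fell by 0.44 ± 0.08 in Mettl3 KD. The other gene lower in both was Crtc2, a coactivator of Creb1, at -0.13 ± 0.04 and -0.12 ± 0.04. Its calls were close to the threshold: that in Mettl3 KD ended without scramble replicate 1 or 2 or Mettl3 KD replicate 2, 3 or 4, and that in Mettl14 KD held only without scramble replicate 3 or Mettl3 KD replicate 1. In Mettl14 KD, 2 factors were higher without scramble replicate 2, and 1 was lower in the fits without any 1 of scramble replicate 1, Mettl3 KD replicates 2 to 4 and the Mettl14 KD libraries.

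Among 12 genes of AP-1 protein turnover, 1 was higher and 3 lower in Mettl3 KD, and 1 higher and 1 lower in Mettl14 KD. Gsk3a and Gsk3b encode kinases that mark Jun for degradation. Gsk3a fell by 0.13 ± 0.04 and 0.21 ± 0.04, and Gsk3b fell by 0.17 ± 0.04 in Mettl3 KD. Ndfip2, an adaptor of the ubiquitin ligase Itch, fell by 0.19 ± 0.06 in Mettl3 KD, and was not called without scramble replicate 2, at -0.15. Without scramble replicate 3, 2 genes of this list were lower in Mettl14 KD.

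Of 11 proteins grouped as binders of AU-rich elements, through which Fos transcripts are degraded, 0 were higher and 1 lower in Mettl3 KD, and 0 and 0 in Mettl14 KD. At an unadjusted p under 0.05, edgeR counted 0 higher and 2 lower in each; DESeq2 and limma-voom gave 0 and 1, and 0 and 0. The 1 was Pum2, at -0.08 ± 0.03, which binds another element; its call held only without scramble replicate 1, Mettl3 KD replicate 3 or Mettl14 KD replicate 2, of the 11 libraries left out in turn. Without scramble replicate 1, 1 was higher and 1 lower in Mettl14 KD. Zfp36, tristetraprolin, was at -0.18 ± 0.13 and 0.00 ± 0.13.

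Of 32 genes listed as textbook AP-1 targets, 12 passed the filter. In Mettl3 KD 2 were higher and 4 lower, and in Mettl14 KD 2 higher and 2 lower, with medians of -0.16 and -0.12. Sprr1a, a cornified envelope protein induced by AP-1 in epithelia, was at 1.64 ± 0.425 CPM in Mettl3 KD and 1.73 ± 0.110 in Mettl14 KD, against 8.76 ± 0.498 in scramble. Vegfa, the vascular growth factor, which hypoxia also induces, was at 154 ± 3.19 and 165 ± 1.90 CPM against 248.8 ± 9.70. Hbegf, a ligand of the EGF receptor, rose by 0.24 ± 0.06 and 0.32 ± 0.06. Tnfrsf12a, the TWEAK receptor, was called lower in Mettl3 KD, at -0.14 ± 0.05, and higher in Mettl14 KD, at 0.14 ± 0.05. Of 11 libraries left out in turn, the first call held only without scramble replicate 2 or Mettl3 KD replicate 1, and the second only without scramble replicate 1 or 3 or Mettl3 KD replicate 1. In Mettl3 KD 2 targets were lower in the fits without any 1 of scramble replicate 3, Mettl3 KD replicates 2 to 4 and Mettl14 KD replicates 2 and 4. In Mettl14 KD 4 were lower without scramble replicate 2, where the median was -0.03, 4 by DESeq2 and limma-voom and 8 with no filter on low counts, and 1 was higher in the fits without any 1 of scramble replicate 2, Mettl3 KD replicates 2 to 4 and the Mettl14 KD libraries.

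**Figure D4:**
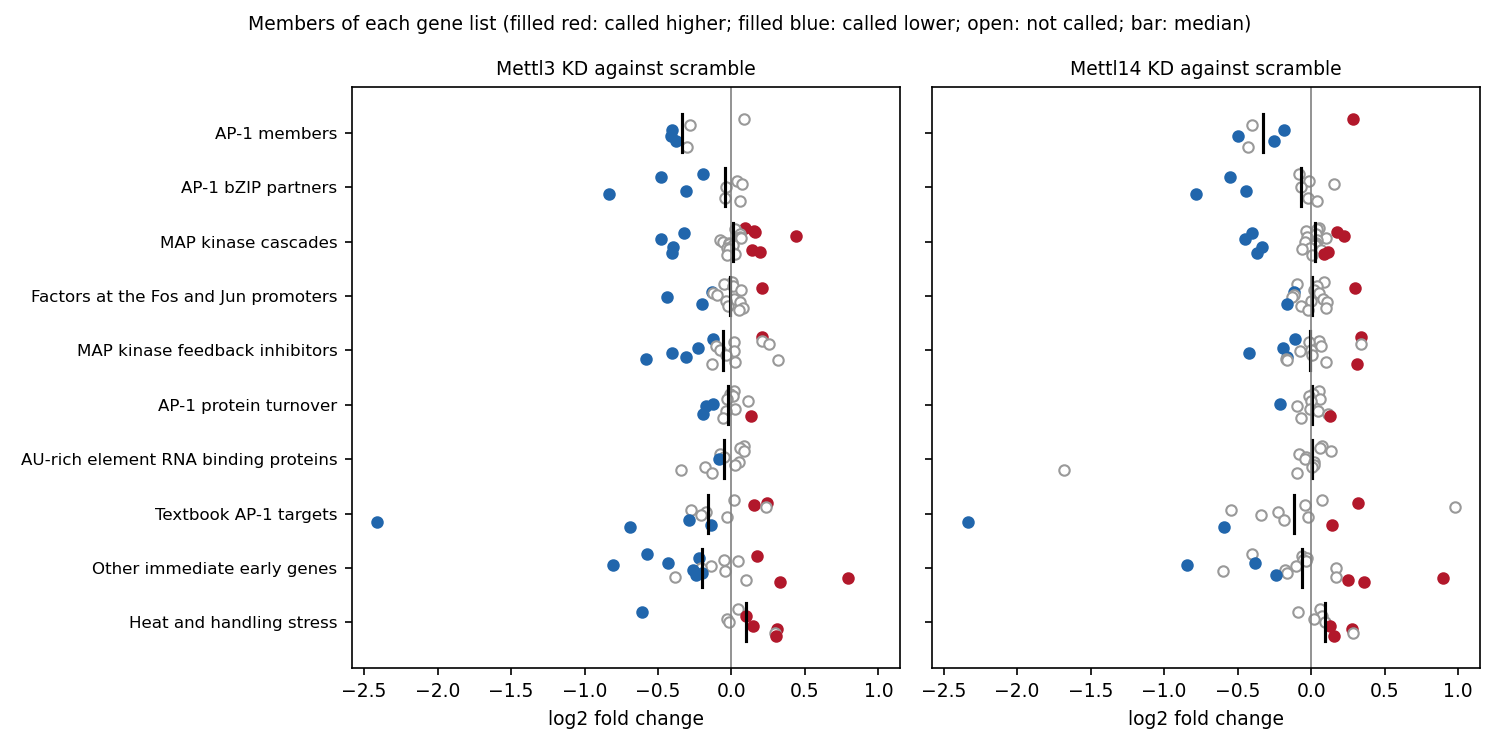
Log2 fold change (horizontal axis) of each tested member of the AP-1 family and of 9 related gene lists in Mettl3 KD and Mettl14 KD against scramble, filled red where called higher, filled blue where called lower and open where not called, with the list's median as a bar. The AP-1 members have medians of -0.34 and -0.33, which without scramble replicate 2 (not drawn) were -0.24 and -0.21. The 6 lists of partners and regulators have medians from -0.07 to 0.03. Medians are -0.16 and -0.12 for textbook AP-1 targets and -0.20 and -0.06 for other immediate early genes. For heat and handling stress they are 0.10 and 0.09.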

How the data were processed

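The authors deposited 1 table of expected counts per gene, which kallisto estimated, per the submitters' processing notes; the sources used here give neither its version nor the build, the annotation or how transcripts were summed to genes. Of these unscaled values 11.6% were not whole, and all were rounded. No column belonged to other samples. Symbols came from gene tables that matched 48651 of 53947 rows.

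Genes were kept by filterByExpr of edgeR 4.0.16 (minimum count 10), which left 14133. All 11 libraries entered 1 fit with a mean per group, TMM scaling and the robust quasi-likelihood F-test, in R 4.3.3, with Benjamini-Hochberg adjustment over all genes at 0.05. SE is the absolute log2 fold change over the square root of F. Residual degrees of freedom were 8, and edgeR's common coefficient of biological variation was 4.38%. The fit was tested on simulated data. The members and gene lists were chosen with earlier results of these data known. Always named were the 7 members and both targets. For each knockdown the text names, from each list, the 2 called genes of lowest adjusted p, and for each called member the 3 genes nearest in profile. Some genes counted in the lists are not reported here by name. Lengths, GC content and GGACT came from GENCODE M21 and promoters from RefSeq, both on GRCm38. Alternatives were other scalings, no filter, DESeq2 1.42.0, limma-voom 3.58.1, a replicate block, the compared groups alone and each library left out in turn.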

Additional observations from a re-analysis of the deposited data

How the results depend on the processing

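The 7 member calls against scramble (Jun, Junb and Fosl2 lower in both knockdowns, Fos higher in Mettl14 KD), and Fosl2 lower in Mettl3 KD than in Mettl14 KD, kept direction and call under all 8 other settings and with any 1 of 11 libraries left out. The replicate numbers did not pair the libraries: deviations of same-numbered libraries correlated between -0.118 and 0.0674. With the replicate block, 3 members were lower in Mettl3 KD, 1 was higher and 3 lower in Mettl14 KD, and 0 and 1 between the knockdowns.

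Fitting the 2 groups compared alone gave 3 members lower and 1 higher in Mettl3 KD against Mettl14 KD, and 2187 genes called against 1145. With 1 library left out, members lower ran from 3 to 4 in Mettl3 KD, from 3 to 5 in Mettl14 KD and from 1 to 3 between the knockdowns, where members higher ran from 0 to 1 and all genes called from 713 to 2125. Median transcript length in place of the longest gave Jun family shares of 65.44%, 65.01% and 60.75% in scramble, Mettl3 KD and Mettl14 KD. Between the knockdowns, 4 log2 fold changes that did not pass changed sign with 1 library left out: Fosb ran from -0.0114 (without Mettl3 KD replicate 1) to 0.200, Dusp8 from -0.0235 (without Mettl14 KD replicate 4) to 0.0691, Sprr1a from -0.216 to 0.0811 (without Mettl3 KD replicate 2) and Ier3 from -0.0010 (without Mettl3 KD replicate 1) to 0.0682. The causes were not tested. Of 432 list counts under other settings, 30 moved by over 1.5 times, and of 594 with 1 library left out, 69 did. DESeq2 and limma-voom called Jund lower in Mettl14 KD, and Fosb was lower there with no filter or the 2 groups alone, at -0.40 and -0.41. Fosl1 had too few counts for any test.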

Other observations

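Other immediate early genes, which the same signals induce, were split. Of 17 tested, 3 were higher and 7 lower in Mettl3 KD, and 3 higher and 3 lower in Mettl14 KD. Of all genes tested, 15.5% were higher and 15.8% lower in Mettl3 KD, and 10.1% and 10.8% in Mettl14 KD. With 1 library left out, 2 to 3 of the 17 were higher and 5 to 8 lower in Mettl3 KD. In Mettl14 KD 2 to 4 were then higher and 2 to 3 lower. The medians were -0.20 and -0.06, and without scramble replicate 2 that in Mettl3 KD was -0.10. Ier3, an early gene of survival signalling, fell by 0.81 ± 0.05 and 0.85 ± 0.05 on the log2 scale, while Nr4a1, an orphan nuclear receptor, rose by 0.79 ± 0.07 and 0.90 ± 0.07. Of 9 tested genes of heat and handling stress, 4 were higher and 1 lower in Mettl3 KD, and 3 higher and 0 lower in Mettl14 KD, where DESeq2 and limma-voom also gave 0 lower, and edgeR 1 at an unadjusted p under 0.05. Dnajb1, a heat-induced cochaperone, fell by 0.61 ± 0.04 in Mettl3 KD and did not pass in Mettl14 KD, at -0.09 ± 0.04; the direct difference was -0.52 ± 0.04. Hspa8 and Hspd1, chaperones of the cytosol and of mitochondria, rose by 0.15 ± 0.03 and 0.31 ± 0.06 in Mettl3 KD and by 0.13 ± 0.03 and 0.28 ± 0.06 in Mettl14 KD, and Hsph1 rose by 0.31 ± 0.04 and 0.15 ± 0.04.

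The genes whose profiles over the 11 libraries lay nearest to those of the called members were found among 11263 genes with at least 50 normalised counts on average. Likeness was the root mean square difference between log2 CPM values centred on each gene's mean. Nearest to Fosl2 were Sptb, Tspan5 and Nfic, at 0.039, 0.046 and 0.052, against a spread of 0.166 of Fosl2 about its own mean. Whrn, Aplp1 and Cdca3 lay at 0.049, 0.050 and 0.051 from Junb, which had a spread of 0.163. Naa80, Pitpnm2 and Slc2a6 lay at 0.070, 0.070 and 0.073 from Jun, with a spread of 0.216. Hhatl, Alas1 and Prdm11 lay at 0.056, 0.057 and 0.060 from Fos, with a spread of 0.137. Among the scramble libraries, replicate 2 was highest for Jun, Junb and the genes named as nearest to them. Likeness without that library was not computed.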
